A study of Rattus norvegicus with 176 samples.

Results

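Solute carriers are the membrane proteins that move amino acids, sugars, organic ions, metals, nucleosides and vitamins into and out of cells and organelles. The genes described here are those whose symbol on the array starts with Slc or Slco and a number, without the mitochondrial Slc25 family and without Slc2a2, Slc10a1, Slc27a5 and Slco1b2. Of 206 such genes on the array, 174 had a signal above the 40th percentile of their array on at least 3 arrays, and each was represented by its probe set with the highest mean log2 signal. The whole annotation held 10411 genes with a probe set. The members at the limit of this filter were dim: Slc10a2, Slc14a1, Slc22a4, Slc7a6 and Slco1a5 passed on exactly 3 arrays, with median signals over all arrays of 37.2, 20.1, 31.6, 24 and 38.6. Just outside it, Slc17a6, Slc1a1, Slc6a2 and Slco1a3 were above the limit on 2 arrays, with medians of 28.9, 33.3, 27.5 and 29. A further 73 members were above it on all 176 arrays.

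Liver sections of F344 rats, an inbred strain, were profiled on Affymetrix arrays in a long-term study of clofibric acid (CA), a fibrate drug that activates the nuclear receptor PPARalpha in rodent liver. Each rat gave 1 untagged section, and these fell into 30 groups. Diethylnitrosamine, a liver carcinogen, is what DEN usually abbreviates. Untreated rats, rats on CA, rats given DEN and rats given both (DEN-CA) were sampled at times labelled 5j, 1m, 3m, 9m and 12m, in groups of 5, and the arms without DEN also at 18m. DEN and control rats of the time -8, given without a unit, made up another pair of groups of 5. The label rev marked 4 CA and 3 control rats of 18m and, for 12m, 6 rats given DEN, 5 given both agents and 4 controls. CA rats labelled 18 without a unit numbered 6. Sections tagged TU came from 9 CA and 7 DEN-CA rats and sections tagged PERI from 5 rats. The labels spell out neither j, rev, TU nor PERI, give no dose or route for DEN and no age or sex, and name 5000 ppm CA in the titles of controls too. Separate rat numbers mark separate animals, and every group is a single strain.

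In the liver, solute carriers of the hepatocyte membrane take up amino acids, drugs, nucleosides and vitamins from blood, and others export metals and anions or serve the endoplasmic reticulum and lysosomes. Slc3a2 is the heavy chain (CD98) that carries light chains such as Slc7a5 to the cell surface, where the pair exchanges amino acids. Fibrates are known for inducing fatty acid uptake and oxidation in rat liver, in which Slc27a2, an acyl-CoA synthetase and fatty acid carrier, takes part.

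Array medians of the deposited signal ran from 25.35 to 187.25 and each array was scaled to 99.35, so signals below are relative to the median probe set. Differences are on the log2(signal + 25) scale, given with their standard error, and "rose", "fell" and "called" mean an adjusted p below 0.05 in limma over all probe sets of a fit. Hepatocyte markers were plentiful, as the tissue label implies, with 11 of 12 measured and a summed signal from 99816 to 162555 in controls of 1m. In bulk sections fewer cells of a type and less RNA per cell cannot be told apart. The library labelled as the untagged section of CA rat 4137, at 12m, stood apart, with a median correlation of 0.93 with the other 4 arrays of its group, which had 0.964 to 0.968. Over the 160 members tested, the TU-minus-untagged differences of this rat had a correlation of -0.776 with the mean of the other 15 rats, against 0.471 to 0.831 for each of those. Its differences between sections thus ran opposite to the mean of the other rats, and several results that rest on it are given with and without it. Values of CA at 12m that are given once, and means over the CA times, include this rat. A B suffix, unexplained by the labels, marked 46 untagged arrays.

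Whether CA changed solute carriers over the study was asked by CA against control at each time. Among the 170 members tested, more were lower than higher under CA at all 6 times. At least 1 call was made for 34.1% of the members and for 31.4% of all genes. At 5j, 4 rose and 20 fell, against 4.1% and 7.1% of all 8742 tested genes. At 1m, 7 rose and 25 fell, beside 5.44% and 9.21% of genes. At 3m, 4 rose and 26 fell, beside 6.97% and 7.31%. At 9m, 6 rose and 13 fell, beside 4.54% and 2.81%. At 12m, 3 rose and 19 fell, beside 7.29% and 4.98%, and without rat 4137 the numbers were 4 and 9, beside 4.9% and 3.43%. At 18m, 5 rose and 12 fell, beside 3.68% and 3.57%. As shares of members, the calls ran from 1.76% to 4.12% higher and from 7.06% to 15.3% lower, so the lower share was above that of all genes at each of the 6 times, and the higher share below it. The median change of the members lay between -0.11 at 3m and -0.05 at 18m, where those of all genes were -0.02 and -0.02. For the mean over the 6 times, 14 members rose and 52 fell, beside 18.8% and 22.6% of genes, and without scaling 4 and 66.

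**Figure D1:**
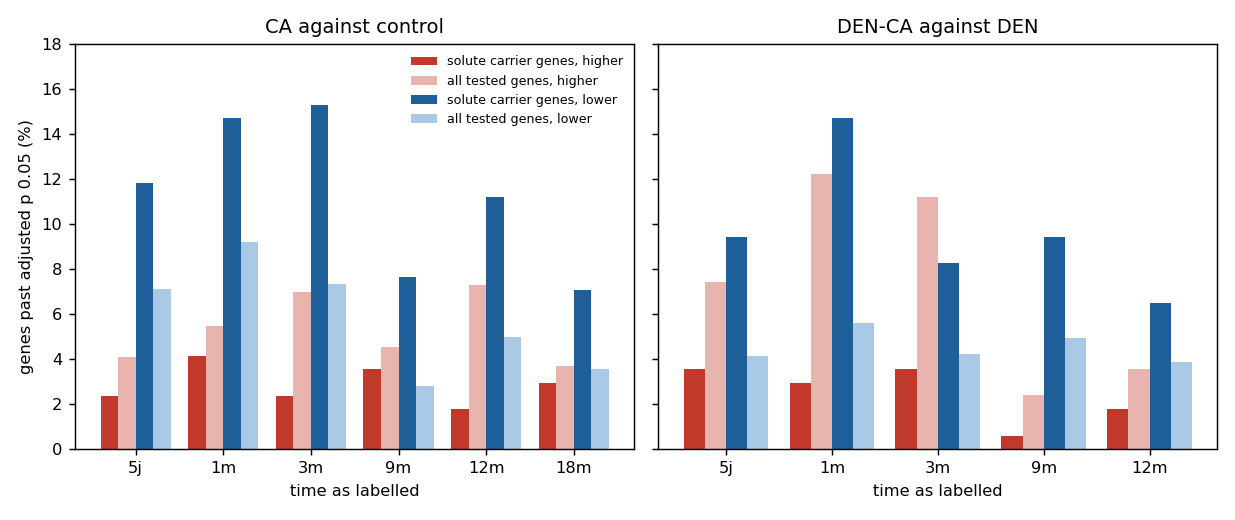
Share of solute carrier genes (dark bars, 170 tested) and of all tested genes (pale bars, 8742) past an adjusted p of 0.05, in percent, by time as labelled, for CA against control and DEN-CA against DEN. Lower calls (blue) take a larger share of solute carriers than of all genes at every time, up to 15.3% at 3m of CA, and higher calls (red) a smaller one.

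These splits rest on scaling and partly on the suffix. Without scaling, members higher and lower numbered 0 and 13, 1 and 1, 0 and 127, 2 and 1, 0 and 2, and 2 and 1 over the 6 CA times, and the median of all genes moved to -0.73 at 3m. After quantile normalization 7 rose and 18 fell at 5j. Within arrays with the B suffix, calls numbered 8, 1, 4 and 1 at 5j, 1m, 3m and 9m, and within those without it 4, 23, 21 and 15, those 4 at 5j being higher. In the CA group only 1 array at each of 1m, 3m and 9m carried the suffix, and only 1 control array of 5j lacked it. With the suffix as a covariate, members higher numbered 8, 7, 5 and 6 from 5j to 9m, and members lower 19, 23, 25 and 15. Shares of all genes were not counted under these other settings, here or below. Whether such splits were particular to carriers cannot be told from them.

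Slc3a2 was the member higher at all 6 times, and 5 members were lower at all 6, Slc16a10, Slc41a2, Slc26a1, Slc31a1 and Slco2b1. Of all genes, 1.16% were higher and 0.858% lower at all 6 times. The signal of Slc3a2 in controls of 5j was 544, 916, 945, 973 and 1175, and in CA rats 1191, 1495, 1972, 2435 and 3107. The groups did not overlap, though the lowest CA rat lay close to the highest control. At 9m controls had 709, 732, 810, 893 and 1071, and CA rats 2097, 2705, 2847, 3070 and 3375. Here every CA rat was far above every control, and the change was 1.71 ± 0.20 (adjusted p = 1.4e-11, limma). At 18m controls had 761, 875, 937, 1029 and 1746, with 1 rat above the rest, and CA rats 1931, 2530, 2869, 2879 and 2995. Over the times the change of Slc3a2 ran from 1.10 at 5j to 1.71 at 9m, with a mean of 1.43 ± 0.08. Its partner Slc7a5, which forms the leucine-preferring exchanger with it, had a mean change of -0.01 ± 0.10 (adjusted p = 0.96, limma). Slc7a5 was dim, with a median of 52.3 and a signal above the filter limit on only 35 arrays, so a change in it could be missed.

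The promoters of Slc3a2 and Slc16a10, the members with the largest mean changes among those called at all 6 times, are shown because the genes moved in opposite directions under the same treatment. They come from RefSeq (GRCr8) and span 250 bases before to 50 after a start, with AGGTCA, the half-site of nuclear receptors such as PPARalpha, in capitals. Slc3a2 has 2 starts in the table, on the minus strand at chr1:215048015-215048314 and chr1:215039621-215039920, and Slc16a10 has 1, on the minus strand at chr20:45122309-45122608.
Slc3a2 start 1: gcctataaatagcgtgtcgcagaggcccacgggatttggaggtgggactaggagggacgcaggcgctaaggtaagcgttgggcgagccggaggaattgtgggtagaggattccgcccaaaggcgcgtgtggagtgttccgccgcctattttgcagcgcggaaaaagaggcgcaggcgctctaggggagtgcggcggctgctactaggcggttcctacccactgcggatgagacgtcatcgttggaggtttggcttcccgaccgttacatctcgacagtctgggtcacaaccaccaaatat
Slc3a2 start 2: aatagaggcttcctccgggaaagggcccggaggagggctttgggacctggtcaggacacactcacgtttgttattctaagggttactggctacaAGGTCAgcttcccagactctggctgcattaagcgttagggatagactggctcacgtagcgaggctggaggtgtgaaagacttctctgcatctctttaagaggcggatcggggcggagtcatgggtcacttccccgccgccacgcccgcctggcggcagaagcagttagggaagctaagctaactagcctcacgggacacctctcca
Slc16a10: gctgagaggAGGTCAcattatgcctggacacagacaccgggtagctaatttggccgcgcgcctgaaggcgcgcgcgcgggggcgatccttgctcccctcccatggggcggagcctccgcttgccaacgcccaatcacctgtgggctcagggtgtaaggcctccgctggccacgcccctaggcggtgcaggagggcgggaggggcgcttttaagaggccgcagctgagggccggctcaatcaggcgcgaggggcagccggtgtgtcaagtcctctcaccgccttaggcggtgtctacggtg
The search covered both strands and 3 motifs, namely AGGTCA, a direct repeat of it with 1 base between the copies, and TGATGNAA, the core of the amino acid response element; every direct repeat also counts as AGGTCA. That motif was found from -156 to -151 at the second Slc3a2 start and from -241 to -236 at Slc16a10, and at neither start of Slc41a2 nor at Slc26a1. The other motifs had no match in these windows. Of all 33469 promoters of the table, 16.2% held AGGTCA, 3.98% TGATGNAA and 0.0538% the direct repeat, and of the 158 promoters of the 146 members that matched, 12%, 3.16% and 0%. A match is a description of letters, and no binding was measured.

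Slc16a10, which carries aromatic amino acids and belongs to the monocarboxylate family, fell most. Its signal at 3m was 171, 187, 198, 210 and 283 in controls and 13.3, 19.2, 46.1, 97.0 and 117 under CA. All CA rats lay below all controls, by 1.67 ± 0.26 on the log2 scale (adjusted p = 3.5e-07, limma), and the lowest values lay under the offset of 25, which shrinks the change. At 12m controls had 159, 238, 259, 286 and 298 and CA rats 37.1, 53.9, 61.2, 74.0 and 89.1, again without overlap. Rat 4137 was the lowest of these, and the change was -1.64 ± 0.26 with it and -1.52 without it. At 18m controls had 100, 311, 333, 442 and 443 and CA rats 86.0, 102, 113, 120 and 158, so 1 control lay within the CA range.

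Slc41a2, a magnesium carrier, had signals of 1892, 2583, 2630, 3132 and 3512 in controls of 1m and of 920, 1113, 1130, 1170 and 1412 under CA. No CA rat reached a control, and the change was -1.22 ± 0.17 (adjusted p = 3.8e-09, limma), the widest of its 6 times. Slc26a1, which exchanges sulfate and oxalate, had 1718, 2057, 2097, 2203 and 2585 in controls of 1m and 1083, 1123, 1158, 1287 and 1295 under CA. The groups stayed apart here too, and its mean change over the times was -0.70 ± 0.06. Slc31a1, the copper importer, had 1328, 1479, 1578, 1747 and 1952 in controls of 3m and 668, 876, 996, 998 and 1061 under CA, with no overlap and a mean change of -0.64 ± 0.05. Both other probe sets of Slc31a1 fell as well, by means of 0.50 and 0.27. Slco2b1, an uptake carrier of organic anions, had 712, 895, 911, 920 and 1013 in controls of 1m and 560, 569, 607, 651 and 685 under CA. Its changes were smaller and even, between -0.51 and -0.33 over the 6 times, and its other probe set had a mean of -0.16 (adjusted p = 0.11, limma). Without rat 4137, Slc41a2 was not among the members called at 12m, while Slc16a10, Slc26a1, Slc31a1 and Slco2b1 were.

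**Figure D2:**
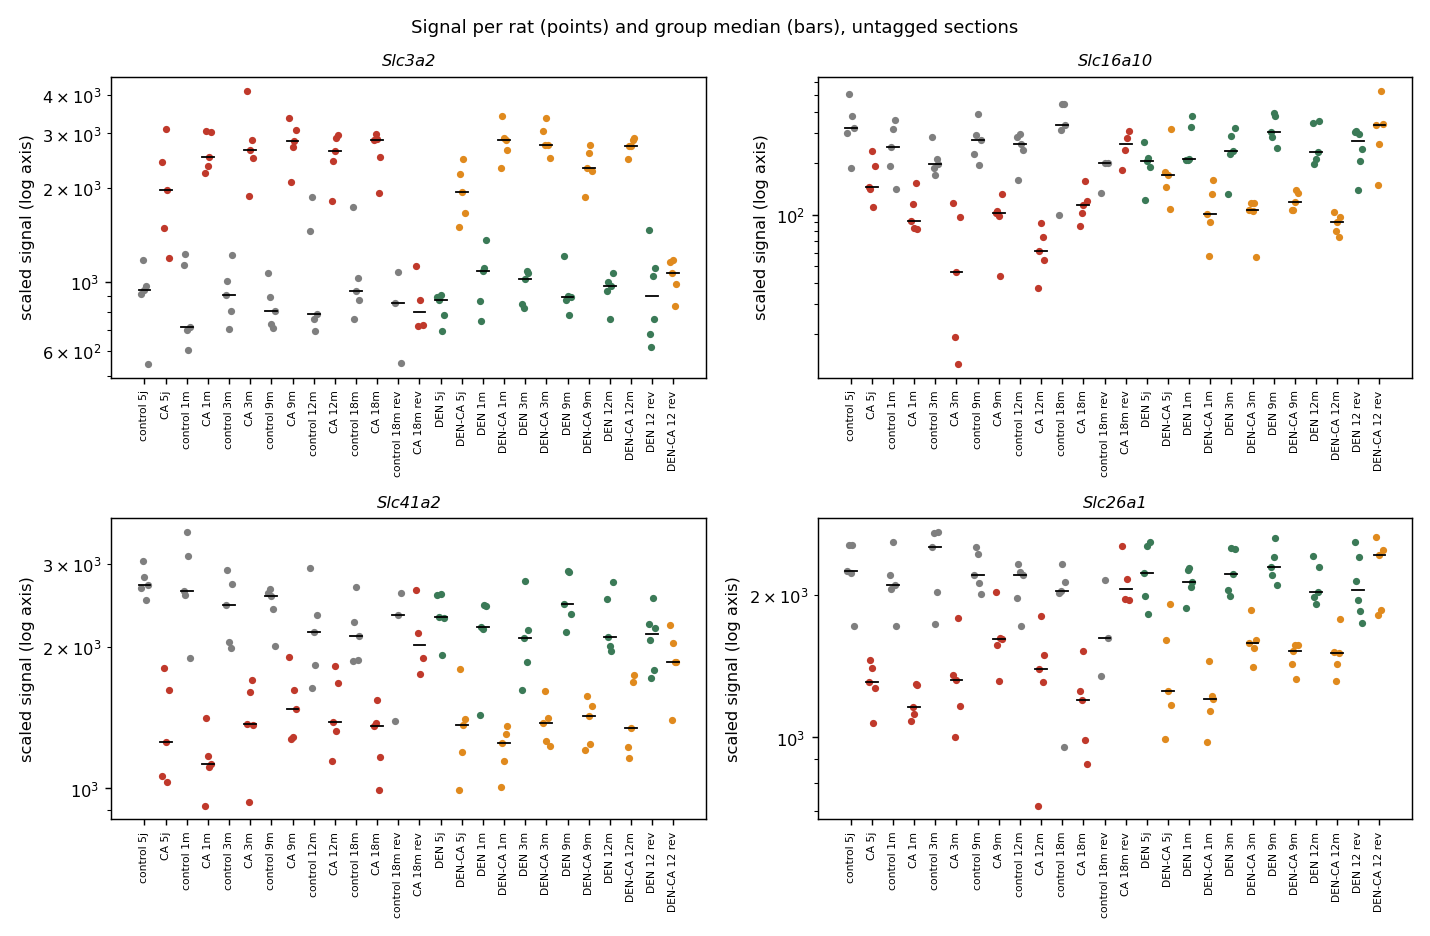
Scaled signal (log axis) of Slc3a2, Slc16a10, Slc41a2 and Slc26a1 in the untagged section of each rat (points) with the group median (bars), for control (grey), CA (red), DEN (green) and DEN-CA (orange) rats. Slc3a2 reached 2097 to 3375 under CA at 9m against 709 to 1071 in controls and lay at 724 to 1129 in the CA rats labelled rev.

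Among families grouped as amino acid carriers, although some of their members carry other substrates, 3 of 31 tested members rose and 7 fell on average under CA. The others did not pass. The other substrate groups below were likewise set by family. The shares of all genes, 18.8% higher and 22.6% lower, stand beside every count by role for this mean, and nothing is read from a count of amino acid carriers so close to them. Slc6a13, a carrier of GABA and taurine, fell by 0.80 ± 0.09 and Slc6a6, the taurine carrier, by 0.79 ± 0.10. At 12m Slc6a13 had 975, 997, 1003, 1306 and 1376 in controls and 215, 407, 638, 714 and 747 under CA, the lowest being rat 4137, without which the change was -0.85 in place of -1.13. Slc6a6 at 3m had 407, 502, 580, 634 and 766 in controls and 128, 220, 287, 309 and 389 under CA, without overlap. It was called at 5j, 1m, 3m and 9m, with changes from -1.09 to -0.96, but had a change of 0.15 at 12m and of -0.72 at 18m, where it was not called (adjusted p = 0.0709, limma). Slc38a3 (glutamine) and Slc38a4 (neutral amino acids) fell by 0.53 ± 0.07 and 0.24 ± 0.06. Slc6a9, the glycine carrier, rose by 0.59 at 5j, 0.57 at 1m and 0.62 at 9m. The glutamine carrier Slc38a2, the cationic amino acid carriers Slc7a1 and Slc7a2, and Slc1a5 had means of -0.32, 0.02, -0.07 and -0.12, none past the threshold, although a second probe set of Slc7a1 rose by 0.37.

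The Slc13 and Slc16 families, grouped for their mono- and dicarboxylate carriers although some of their members carry other substrates, had 5 of 9 tested members lower, with a median change of -0.34, and 1 rose. Besides Slc16a10 these were Slc16a12, which carries creatine, Slc13a4, a sulfate carrier, and the lactate carriers Slc16a1 and Slc16a7, with means of -0.95, -0.74, -0.45 and -0.34. At 5j Slc16a12 had 561, 581, 642 and 652 in 4 controls and a higher signal in the other control, and 222, 236, 241, 307 and 335 under CA, a clean separation of -1.21 ± 0.21 (adjusted p = 8.0e-06, limma). It was called at 5 of the 6 times, all but 18m, where its change was -0.32, and its other probe set had a mean of -0.31. Slc13a4 had 507, 510, 714, 768 and 870 in controls of 5j and 194, 202, 236, 245 and 282 under CA. At 18m its controls had 96.3, 296, 301, 325 and 597 and CA rats 182, 188, 280, 369 and 398, which overlapped throughout. The difference between its change at 18m and at 5j was 1.36 ± 0.36 (adjusted p = 0.041, limma), the single member called in that comparison, beside 0.663% of genes. The call was lost with the suffix as a covariate and without any 1 of 12 of the 20 rats, and after quantile normalization 1 member was higher and 1 lower. The dicarboxylate carrier Slc13a3 had a mean change of -0.13 (adjusted p = 0.31, limma). Slc16a6, linked to ketone body export, rose by 0.41 on average, and its second probe set by 0.61.

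Of 26 carriers of metals and heme, 11 fell and 1, Slc39a11, rose, with a median of -0.10. Slc41a2 and Slc31a1 were followed by Slc39a8, an importer of zinc and manganese, at -0.49, and by the zinc exporter Slc30a1 at -0.28 ± 0.08. Slc11a2, an iron importer, fell by 0.22 ± 0.05. The iron exporter Slc40a1 and the zinc and iron importer Slc39a14 had means of -0.07 and -0.14, with adjusted p of 0.44 and 0.079 (limma). Among 27 carriers of inorganic ions, 3 rose and 7 fell. Slc12a3, the thiazide-sensitive sodium chloride cotransporter, rose by 0.97 ± 0.15 from a very low signal. At 9m it had 4, 9.63, 14.2, 18.7 and 20.1 in controls, all under the offset, and 42.7, 58.9, 59.6, 81.0 and 116 under CA. These did not overlap, but the size of the change depends on the offset. Slc12a3 was above the filter limit on only 36 of 176 arrays, with a median signal of 25.8. If those were mostly CA arrays, a higher call was favoured, so its values are a description. The phosphate carrier Slc34a2 fell by 1.33 ± 0.49 at 3m, its one called time, by a small margin (adjusted p = 0.0498, limma). The sodium, potassium and chloride cotransporter Slc12a2 had a mean change of 0.06 (adjusted p = 0.47, limma).

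Of 27 carriers of organic ions and drugs, 2 rose and 7 fell, with a median of 0.01. The anion carriers Slc17a3 and Slc17a1 fell by 0.58 and 0.54. Slc22a5, the carnitine carrier, fell by 0.31 ± 0.07 on average, and among single times by 0.61 at 12m. In DEN-CA against DEN it rose at 5j, by 0.77 ± 0.18 (adjusted p = 0.0011, limma), with a mean of 0.03 over the DEN-CA times. Whether the arms differ at 5j was not tested, and the difference of their means was not called for it. The uptake carrier Slco1a4 fell by 0.27 ± 0.10 on average but its second probe set did not pass, with -0.08, while Slco1a1 and the anion carrier Slc22a7 had means of -0.08 and -0.09 that did not pass. Slc22a25 and Slc22a17 rose by 0.43 and 0.35. Slco1a1 was called at 5j and at no other CA time, with a change of -0.63, and at 5j after DEN with -0.78.

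Among 13 sugar carriers none rose and 5 fell, Slc45a3, the fructose carrier Slc2a5, Slc37a4, the glucose carrier Slc2a1 and Slc5a6, which by function carries vitamins. Slc37a4, the glucose 6-phosphate carrier of the endoplasmic reticulum, fell at 5j (-0.72) and 1m (-0.54), and its later changes of -0.36 to -0.11 did not pass. Of 18 carriers of nucleosides and nucleotide sugars, 2 rose and 5 fell. Slc28a2, which imports purine nucleosides, had 484, 511, 581, 601 and 608 in controls of 5j and 159, 286, 291, 304 and 319 under CA. The groups were apart, by -1.0 ± 0.19. Slc29a1, the equilibrative nucleoside carrier, fell by 0.46 ± 0.06 on average. Of 10 carriers of vitamins, choline and urea, 3 fell, among them the ascorbate carrier Slc23a1 by 0.50 ± 0.08 and the choline carrier Slc44a1, which fell by 0.74 at 12m.

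Of 5 carriers of fatty acids and lipids, 2 rose. Slc27a2 had 6677, 6798, 7284, 7880 and 10600 in controls of 3m and 10840, 11000, 12110, 16480 and 16590 under CA. All CA rats were above all controls, by 0.77 ± 0.14 (adjusted p = 7.8e-06, limma). Without scaling this change was -0.20, the only setting that turned it. Slc27a1, another fatty acid carrier, rose by 0.22 ± 0.05 on average, and Slc27a4 fell. Both measured bile acid and steroid members, Slc10a2 and Slc10a3, had small changes, of which that of Slc10a3 was called, at -0.12. Slc4a1ap and Slc7a6os, named after carriers but not transporters themselves, were not called.

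**Figure D3:**
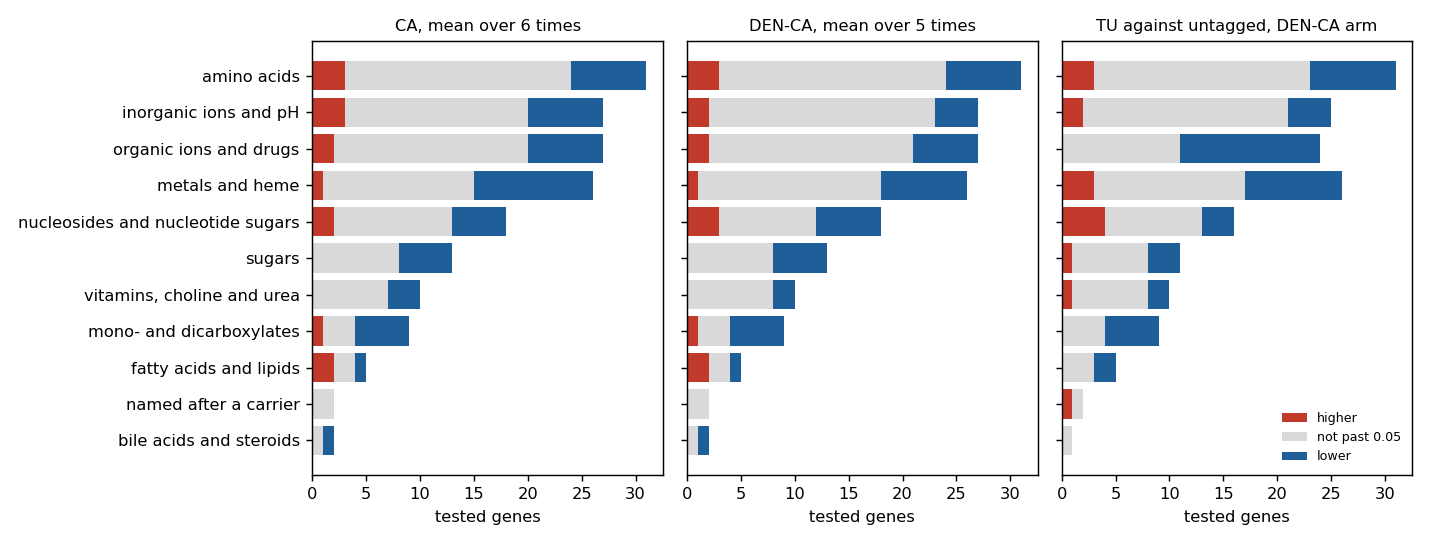
Number of tested solute carrier genes by the substrates of their family that were higher (red), lower (blue) or not past an adjusted p of 0.05 (grey) for the mean of CA over 6 times, the mean of DEN-CA over 5 times and TU against untagged sections in the DEN-CA arm. Metals and heme had 11 lower of 26 under CA, and organic ions and drugs 13 lower of 24 in TU sections.

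DEN-CA against DEN asked the same of rats that had also received DEN, and shares no rats with CA against control. At 5j 6 members were higher and 16 lower, beside 7.42% and 4.11% of genes. At 1m they numbered 5 and 25, beside 12.2% and 5.61%. At 3m they were 6 and 14, beside 11.2% and 4.22%. At 9m they were 1 and 16, beside 2.4% and 4.94%, and 5 and 12 after quantile normalization. At 12m they were 3 and 11, beside 3.57% and 3.85%. On average over the times 14 rose and 45 fell, beside 21.1% and 16.3% of genes, and without scaling 12 and 13. Without scaling the single times had 0 and 3, 5 and 0, 6 and 0, 2 and 0, and 1 and 2. Within arrays with the suffix 5, 27, 10 and 1 members were called at 5j, 1m, 3m and 9m, and within those without it 12, 2, 2 and 4, where the DEN-CA side had 1 array at the last 3 times.

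Slc3a2 was again higher at all 5 times, with changes from 1.20 to 1.55, and Slc26a1, Slc31a1, Slc41a2 and Slco2b1 lower at all 5, beside 0.927% and 0.778% of genes. At 12m Slc3a2 had 759, 936, 972, 996 and 1071 in DEN rats and 2489, 2725, 2740, 2862 and 2910 in DEN-CA rats, 2 ranges far apart. Slc16a10 was called at 4 of the 5 times, all but 5j, where its change was -0.15. At 12m it had 198, 212, 232, 344 and 352 in DEN rats and 73.5, 80.3, 90.2, 96.4 and 103 in DEN-CA rats, also apart. Slc37a4 at 5j had 1966, 2049, 2452, 2589 and 3193 in DEN rats and 834, 1272, 1398, 1714 and 1831 in DEN-CA rats, a change of -0.81 ± 0.16 (adjusted p = 5.1e-05, limma). Others among the widest changes were the phosphate carriers Slc34a2 (-1.44 at 1m) and Slc20a2 (-0.83 at 3m), Slc13a4 (-1.07 at 1m), Slc22a17 (0.73 at 1m), the bicarbonate carrier Slc4a4 (0.76 at 5j) and the magnesium carrier Slc41a1 (0.93 at 3m).

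Over the 170 members the mean changes of both arms had a Pearson correlation of 0.901, a description across genes that are not independent replicates. Of 66 members called for CA and 59 for DEN-CA, 49 were called in both, 74.2% and 83.1% of each list, and all 49 had the same direction, 9 higher and 40 lower. Over all 8742 genes the correlation was 0.915, the calls shared were 68.6% and 75.9% of each list, and 99.9% of those had the same direction, so the members are not set apart by this. The difference between the arms was called for no member in limma, beside 0.0114% of genes called. At an unadjusted p below 0.05 were 11 members and 804 of the 8742 genes. DEN against control gave 1 member at -8 beside 0.32% of genes. It was Slc12a2, with 250, 336, 381, 507 and 549 in controls and 197, 202, 204, 216 and 262 in DEN rats, which overlapped in part, a change of -0.79 ± 0.16 (adjusted p = 0.0034, limma) that was not called without control rat 4004. At the other times limma called no member, beside 0.0343% of genes at 5j and 0% at 1m, 0% at 3m, 0% at 9m and 0% at 12m. At an unadjusted p below 0.05, members numbered 13, 5, 11, 4 and 3 of 170 at 5j, 1m, 3m, 9m and 12m. At the same limit genes numbered 730, 349, 488, 311 and 217 of 8742.

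The groups labelled rev were set against their own rev controls and against the CA groups of the same time without rev. At an unadjusted p below 0.05, CA rats labelled rev differed from rev controls of 18m in 13 members and 828 of 8742 genes. The 1 member called was Slc39a8, higher by 0.61 ± 0.16 (adjusted p = 0.046, limma), beside 0.846% of genes. Its signal was 278, 509 and 646 in rev controls and 624, 675, 676 and 848 in rev CA rats, which overlapped, and the call was lost without any 1 of the 4 CA rats or without control rat 4043. Without control rat 4044, 7 members were called. DEN-CA against DEN among rev rats of 12m called none in limma, beside 0.126% of genes. At an unadjusted p below 0.05 were 10 members and 395 genes. Against CA rats of 18m without rev, 16 members were higher and 12 lower, beside 6.92% and 7.95% of genes. In DEN-CA rats with rev, against DEN-CA rats of 12m, 23 members were higher and 5 lower, beside 8% and 5.31% of genes. Without scaling these numbers were 0 and 9 for CA and 54 and 1 for DEN-CA.

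Slc3a2 had 724, 726, 878 and 1129 in CA rats with rev and 547, 853 and 1074 in their controls, against the 1931 to 2995 of CA rats of 18m without rev. The rev CA rats overlapped the controls, although the highest of them lay above every control. The change of rev CA rats against CA without rev was -1.59 ± 0.21 (adjusted p = 3.3e-09, limma). In the DEN arm it had 840, 987, 1066, 1157 and 1180 in DEN-CA rats with rev, within the 617 to 1471 (median 904) of the 6 DEN rats with rev. Against DEN-CA rats of 12m this was -1.38 ± 0.20. The change with rev, that is the DEN-CA effect with rev minus that without, was -1.32 ± 0.28 for Slc3a2 (adjusted p = 7.4e-04, limma) and for CA at 18m -1.24 ± 0.31 (adjusted p = 0.016, limma).

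Slc16a10 had 183, 239, 282 and 308 in CA rats with rev, all above the 86.0 to 158 of CA rats without it. In DEN-CA rats with rev it had 148.1, 259, 333, 340 and 531, above the 73.5 to 103 of those without and beside 139 to 309 (median 270) in DEN rats with rev. Its change with rev was 1.65 ± 0.41 for CA at 18m and 1.61 ± 0.36 for DEN-CA at 12m. Slc16a12 had 132, 219, 222, 228 and 261 in DEN-CA rats of 12m against 504, 506, 562, 590 and 659 in DEN rats, and 476, 574, 692, 785 and 808 in DEN-CA rats with rev, where DEN rats ran from 367 to 776 (median 535). The rev rats thus lay clear of the DEN-CA rats without rev, and the change with rev was 1.60 ± 0.30 (adjusted p = 7.7e-05, limma). Slc26a1 had 1952, 1961, 2157 and 2535 in CA rats with rev, 881, 986, 1201, 1254 and 1521 in CA rats of 18m, and 1349, 1623 and 2152 in rev controls. It was called with a change of 0.99 ± 0.24 at 18m (adjusted p = 0.0089, limma).

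Slc39a8 was also called for the change with rev in both arms, by 0.86 ± 0.21 and 0.66 ± 0.19, its signal at 18m being 540, 546, 777, 810 and 928 in controls and 535, 538, 608, 609 and 650 under CA, with overlap. Slc16a6 was called at 18m, by -1.28 ± 0.27 (adjusted p = 0.0018, limma). Its signal was 26.8, 54.2, 59.8, 63.2 and 121 in controls and 89.5, 101, 110, 114 and 116 under CA, but 68.7, 87.4 and 311 in rev controls and 66.2, 68.5, 75.6 and 76.2 in rev CA rats. A single rev control, rat 4043, held the value of 311. In all, 5 members were called at 18m, 3 higher and 2 lower, beside 1.58% of genes, and none without rat 4043. At 12m 4 were called, 3 higher and 1 lower, beside 2.43%. Quantile normalization gave 7 higher and 2 lower at 18m, and without scaling none was called at 18m and 2 were higher at 12m.

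Markers of other cell types were read in the same comparisons. Beside the counts for the means stand 18.8% of all genes higher and 22.6% lower under CA, and 21.1% and 16.3% under DEN-CA. Lower shares were 9.21% at 1m under CA, 2.81% to 7.31% at the other CA times and 4.11% at 5j under DEN-CA. For rev rats, 6.92% of genes were higher than in CA rats of 18m and 8% than in DEN-CA rats of 12m. Nothing is read from counts near these shares. Of 11 measured macrophage markers, 9 fell on average under CA and 9 under DEN-CA. At 1m under CA 8 fell, with summed signals of 6872 to 11487 in controls and 4280 to 6170 in CA rats, and at each other CA time 1 or 2 fell. In rev rats 6 of 11 were higher than in CA rats of 18m and 7 of 11 higher than in DEN-CA rats of 12m, with sums of 8831 to 13795 against 5834 to 7607 in the latter. Stellate and fibroblast markers had 6 of 11 lower on average under CA and 6 of 11 under DEN-CA. Hepatocyte markers had 1 higher and 1 lower of 11 under CA, and 8 lower of 11 under DEN-CA. Lymphocyte markers had 4 of 9 lower under CA and 3 of 9 under DEN-CA, with sums at 3m of 1866 to 3447 in controls and 992 to 1403 in CA rats, and 4 of 9 were higher in rev than in DEN-CA rats of 12m. The 3 rev controls of 18m had lymphocyte sums of 3269 to 17495, against 1822 to 3016 in rev CA rats and 1206 to 5411 in controls of 18m. Their macrophage sums were 14981 to 19389, against 10431 to 14439 and 6948 to 15250. These rats are the reference for the effect of CA in rev rats of 18m. Endothelial markers had 3 of 7 lower under CA and 1 of 7 higher under DEN-CA. Of 4 cholangiocyte and 5 pancreatic acinar markers, 1 each was higher in both arms. Acinar sums at 18m were 150 to 352 in controls, 824 to 1337 in CA rats and 473 to 594 in CA rats labelled rev, and cholangiocyte sums were 498 to 705, 794 to 970 and 475 to 564. Rev controls of 18m had 346 to 868 and 406 to 638, so the CA rats labelled rev lay within the range of their own controls. Both erythroid markers measured were lower at 5j under CA and under DEN-CA, with sums of 3900 to 6858 in controls and 1164 to 2469 in CA rats. The part of these markers in the solute carrier results was not tested.

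CA rats labelled 18 without a unit were compared with controls of 18m, and 8 members were higher and 25 lower, beside 13.9% and 9.75% of genes, and without scaling 0 and 21. Slc30a1 fell most, with 254, 278, 346, 386 and 419 in controls and 88.0 to 124 (median 108) in the 6 CA rats, ranges far apart, by 1.44 ± 0.18 (adjusted p = 9.2e-11, limma). Slc3a2 had 1729 to 2893 (median 2666) in these rats and was higher by 1.23 ± 0.19. Slc38a2, Slc6a13 and Slc16a10 had changes of -1.35, -1.16 and -1.08, all called. Slc16a6, the urea carrier Slc14a2 and the dim Slc12a3 were higher by 0.63, 0.55 and 1.08, for Slc12a3 again as a description.

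Age in untreated rats was read by setting 18m controls beside 5j controls, where 7 members rose and 5 fell, beside 6.34% of genes in either direction. Suffix and time went together here, since 4 of the 5 controls of 5j carried the B suffix and none of 18m did. With the suffix as a covariate 17 rose and 5 fell, within arrays without it, with 1 control of 5j, 5 were higher and none lower, and without scaling 4 rose and 1 fell. Leaving out control rat 4040 or 4008 left 6 calls. Slc22a8, an organic anion uptake carrier (Oat3), changed most, by -2.36 ± 0.44 (adjusted p = 8.2e-05, limma), a call that arrays without the suffix did not give. It had 1176, 1614, 1926, 1998 and 2268 in controls of 5j and 90.9, 124, 232, 855 and 1266 in those of 18m. The older rats spanned more than a factor of 10 among themselves. At 9m 4 controls had 1726 to 2243 and 1 had 119. CA rats of 18m had 352, 835, 875, 1235 and 1431, and the change of 1.35 ± 0.44 against controls (adjusted p = 0.042, limma) was lost without 7 of the 10 single rats.

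Rev rats of 18m were all low for Slc22a8, with 100, 169 and 175 in controls and 117, 117, 174 and 180 in CA rats, so that its change was -2.38 ± 0.47 against CA rats without rev, while against their own controls it was not called (adjusted p = 0.999, limma). CA rats labelled 18 had 188 to 1350 (median 275), with 1 rat above 289. Other members lower in controls of 18m were Slc13a4 at -1.15 ± 0.26, Slc6a6 at -0.99 ± 0.26 and Slco1a4 at -0.82 ± 0.25. Slc7a7, a light chain of Slc3a2 for cationic amino acids, Slc30a1, Slc44a1 and the phosphate carrier Slc20a2 rose by 0.86, 0.73, 0.69 and 0.60.

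**Figure D4:**
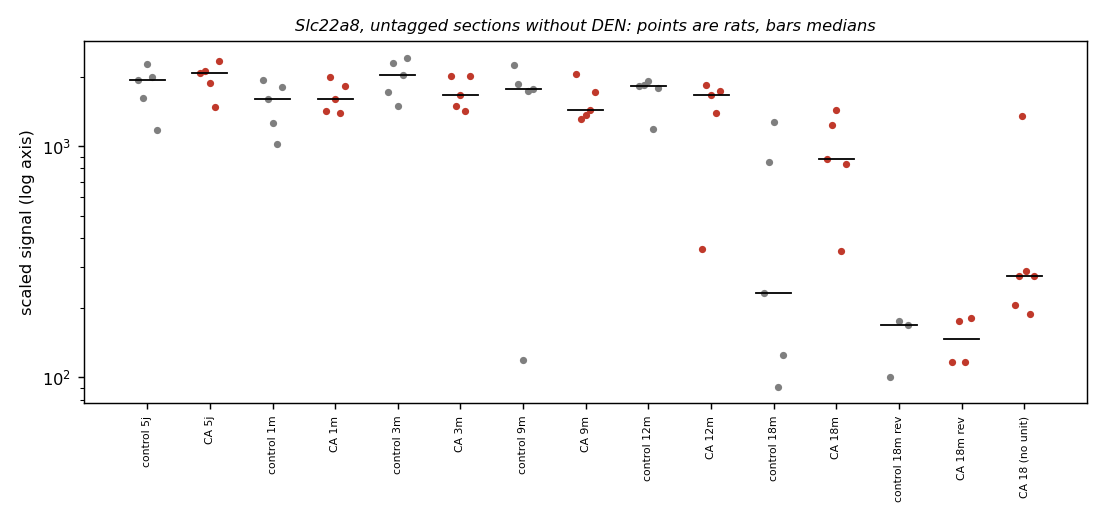
Scaled signal (log axis) of Slc22a8 in the untagged section of each control (grey) and CA (red) rat, with group medians as bars. All controls of 5j were at 1176 or above, while 3 of 5 controls of 18m were at 232 or below and all 7 rev rats at 180 or below.

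TU sections, 23 in all and averaged within a rat, were compared with the untagged section of the same rat. In the DEN-CA arm 15 of 160 members tested were higher and 49 lower in TU sections, beside 12.6% and 17.8% of 8333 genes, and without scaling 3 and 30. Carriers of organic ions and drugs had 13 lower and none higher of 24 tested, with a median of -0.40, and the Slc13 and Slc16 families 5 lower of 9. Slco1a4 had differences of -2.36, -2.44, -2.44, -2.19, -1.12, -1.12 and -2.42 over the 7 DEN-CA rats. All were negative, with a mean of -2.01 ± 0.31 (adjusted p = 3.6e-04, limma), and its second probe set had -2.10. Slc22a8 had -2.12, -1.88, -1.99, -1.38, -1.64, -0.89 and -1.28, a mean of -1.60 ± 0.32. Slc13a3 ran from -2.12 to -0.47 (median -1.92) and Slc13a4 from -2.27 to -0.57 (median -1.61), also negative in every rat. Slc6a13 and Slc6a6 were lower too, at -1.45 and -1.23.

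Higher in TU sections of that arm were Slc50a1, a sugar carrier, at 0.82 ± 0.18, and Slc7a1, the arginine and lysine importer, at 0.78 ± 0.18. Slc7a1 was positive in 6 of 7, from -0.17 to 2.01 (median 0.77), and its second probe set was higher too, at 0.78. The glutamate carrier Slc1a6, at 1.08 ± 0.25, and the folate carrier Slc19a1, at 0.81 ± 0.29, passed the filter in the fit that holds TU sections but not among untagged sections alone, so a higher call was favoured and these values are a description. Both were dim, with medians of 23.6 and 8.49 over all arrays. Slc1a6 differed by 0.83, 1.40, 1.41, 1.18, 1.40, 1.25 and 0.08 in the 7 rats, and the call of Slc19a1 was lost without any 1 of 6 of them. The dim Slc7a5 rose by 0.45, and Slc3a2 fell by 0.48.

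In the CA arm 7 members were lower and none higher, beside 0.876% of genes higher and 3% lower, but without scaling 5 were higher and none lower. They were Slc16a10 at -0.90 ± 0.24, Slc3a2 at -0.60 ± 0.15, the folate carrier Slc46a1 at -0.60 ± 0.14, Slc38a3 at -0.58 ± 0.13, Slc41a2, Slc27a2 and Slc5a6, with adjusted p from 0.031 to 0.048 (limma). None of the 7 was called when any 1 of the other 8 rats was left out. Without rat 4137, 13 were higher and 35 lower, with 9.7% and 13% of genes, among them Slco1a4 at -1.28, Slc13a4 at -1.11 and the phosphate carrier Slc20a1 at 0.52. Rat 4137 had a Slco1a4 difference of 2.03 where the other 8 CA rats had -1.82 to -0.83, and a difference of -1.42 for the dim Slc1a6 where they had 0.78 to 1.43. For Slc3a2 it had 0.62 against -1.30 to 0.03. The difference between the arms was called for no member in limma, beside 0% of genes. At an unadjusted p below 0.05 were 21 members and 1323 of 8333 genes, and without rat 4137 these numbers were 20 and 1168.

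**Figure D5:**
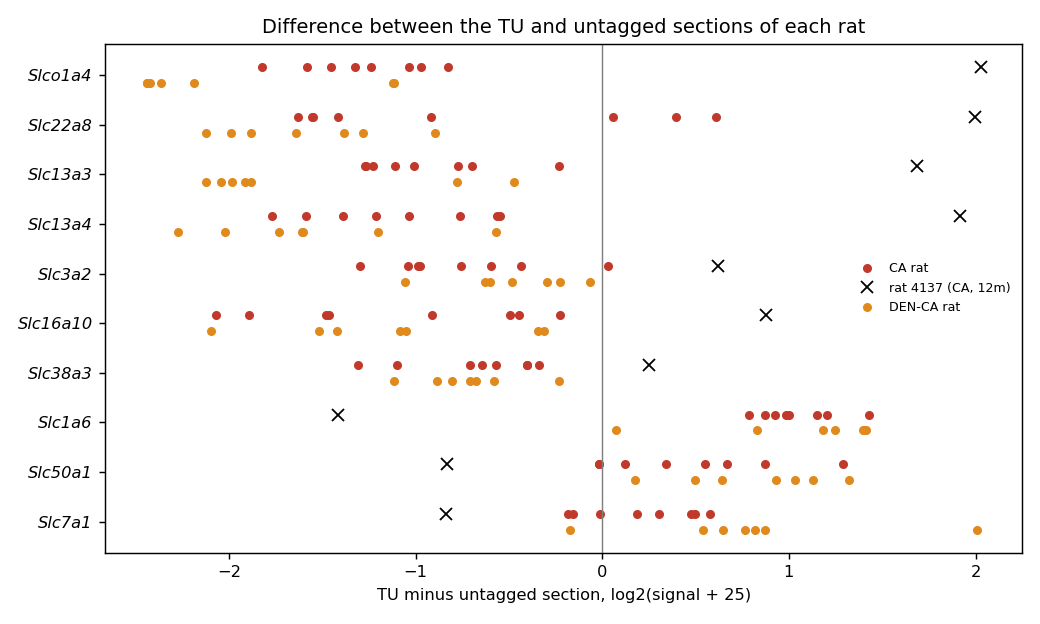
Difference between TU and untagged sections of each rat on the log2(signal + 25) scale for 10 solute carriers, with CA rats in red, DEN-CA rats in orange and rat 4137 as a cross. For Slco1a4 every rat but 4137 lies between -2.44 and -0.83, and rat 4137 at 2.03.

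Macrophage markers were lower in these sections, with 8 of 11 measured called in the DEN-CA arm and summed signals of 3493 to 4101 in TU sections of 9m against 5482 to 7695 in untagged sections of that group. Of all genes in this arm 12.6% were higher and 17.8% lower, and nothing is read from marker counts near these shares. Of 7 endothelial markers 4 were lower, of 11 hepatocyte markers 2 were lower and none higher, and of 11 stellate and fibroblast markers 3 were higher and 1 lower. Of 5 acinar markers 2 were higher, with sums of 1580 to 2159 in TU and 712 to 1422 in untagged sections of 9m, and 14378 in a TU section of the rev group. Both erythroid markers and 1 of 6 lymphocyte markers were lower, and none of 3 cholangiocyte markers was called, with sums over 4 markers of 1183 to 1210 in TU and 634 to 950 in untagged sections of 9m. Their part in the solute carrier differences was not tested. PERI sections of 5 rats called no member of 133 tested in limma, beside 0% of 7449 genes. At an unadjusted p below 0.05 were 5 members and 198 genes.

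The ATP-driven ABC transporters and the partners of transport were measured for comparison. Of 19 ABC genes tested, 5 rose and 8 fell on average under CA, beside 18.8% and 22.6% of all genes, with Abcc9, Abcb1a and the sterol exporter subunit Abcg5 at -0.86, -0.72 and -0.66 and the cholesterol exporter Abcg1 at 0.66. In TU sections of the DEN-CA arm 3 of 18 were higher and 7 lower, beside 12.6% and 17.8% of all genes, led by the bile salt exporter Abcb11 at -1.08, the phospholipid exporter Abcb4 at -0.84, Abcc6 at -0.80 and Abcb6 at 0.82. Of 19 partners 5 rose and 8 fell under CA, beside the same shares. The glycerol channels Aqp3 and Aqp7 and the fatty acid receptor Cd36 had 2.77, 1.04 and 1.51, and the scaffold Pdzk1 had -0.71. In TU sections 1 of 19 was higher and 8 were lower, beside the same 12.6% and 17.8%, with the scaffold Nherf1 at -0.94, the glycerol channel Aqp9 at -1.72, Cd36 at -0.79 and Pdzk1 at -1.52.

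Of the 38 carriers set out to be described whatever their values, 32 were members. Slc15a1 was under the filter, and the others were not analysed here.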

How the data were processed

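The series holds 176 Affymetrix arrays of F344 rat liver with 15922 probe sets each. The authors deposited MAS5 intensity values, per the submitters' processing notes, on a linear scale, with no version given in the sources used here. GEO's annotation, updated through gene identifiers, gave 1 gene for 12748 probe sets by identifier, 2 by accession and 33 by array name only, several genes for 312 and none for 2827. Each array was scaled to the median of the array medians and the deposited intensity became log2(signal + 25). Probe sets above the 40th percentile of their array on 3 or more arrays of a fit were kept.

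All untagged arrays, in 30 groups, were fitted in limma 3.58.1 (R 4.3.3) with 118 residual degrees of freedom, with an intensity trend, and p-values were adjusted by Benjamini-Hochberg over all 12393 probe sets, at 0.05. TU sections (14 degrees of freedom) and PERI sections (4) were tested as differences from the untagged section of the same rat, the pairing coming from the rat number in the titles. The correlation within rats in the TU fit was 0.132. Each gene counts through its brightest probe set. The code was tested on simulated data. The rule for named genes took, per comparison, up to 4 called members with the highest and 4 with the lowest change (6 for differences of differences), those called at all times, 38 listed carriers and the member with the smallest p of each role group; other called members of a role group were named after their values were seen. Members and lists were chosen with earlier results of these data known. Other offsets, scalings, filters, weights, blocks and groups, and the omission of each rat, were tried. The fits within arrays with or without the B suffix, and a variance trend on the mean difference, were chosen after seeing the data. The number of arrays limits the precision.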

Additional observations from a re-analysis of the deposited data

Results flagged for a closer look

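In 9 of the 92 sets of 4 to 10 values looked at, 1 rat lay far from the others of its set. The rule gives about 1 in 20 for independent, normally distributed values. That share is no yardstick here, since signals were not on a log scale, the sets were those printed above, and 4 of the 9 share 1 rat. Control rat 4036 of 18m had a Slc3a2 signal of 1746, where the other 4 had 761 to 1029. Control rat 4040 of 18m had 954 for Slc26a1, where the others had 2015 to 2325. Slc22a8 was 119.2 in control rat 4025 of 9m, against 1726 to 2243 in the others, and 1350 in CA rat 4155 of the group labelled 18, against 188 to 289. CA rat 4118 of 5j had 159.4 for Slc28a2, against 286 to 319. The other 4 sets all held CA rat 4137, whose TU-minus-untagged differences were 2.03 for Slco1a4, 1.68 for Slc13a3, 1.92 for Slc13a4 and -1.42 for Slc1a6. The other 8 CA rats had -1.82 to -0.83, -1.27 to -0.23, -1.77 to -0.55 and 0.78 to 1.43 for these genes.

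Effects that differed between conditions, by limma's test of the difference itself, were as follows. For Slc13a4 the CA effect at 18m minus that at 5j was 1.36, a call lost with the suffix as a covariate and without many single rats. The change of the CA effect with the label rev at 18m was 1.65 for Slc16a10, -1.28 for Slc16a6, 0.99 for Slc26a1, 0.86 for Slc39a8 and -1.24 for Slc3a2. That of the DEN-CA effect at 12m was 1.61 for Slc16a10, 1.60 for Slc16a12, 0.66 for Slc39a8 and -1.32 for Slc3a2. None of the 5 changes with rev at 18m was called without rev control rat 4043, or in a fit of only the groups compared.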

How the results depend on the processing

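Values here are numbers of called members, given without shares of all genes, so nothing is read from them about carriers as a group. Of 180 named changes, 177 kept their direction under all alternatives that gave a value and 33 also their side of the threshold. Without scaling, CA gave 13, 2, 127, 3, 2 and 3 from 5j to 18m, and DEN-CA 3, 5, 6, 2 and 3 from 5j to 12m and 25 on average. DEN at -8 gave 0, the CA effect of 18m minus 5j 0, rev CA 0 against rev controls and 9 against CA, rev DEN-CA 55 against DEN-CA, the changes with rev 0 and 2, CA labelled 18 21, age 5, TU in the DEN-CA arm 33 and the TU arm difference 1. Slc27a2 turned to -0.20 for CA at 3m and 0.029 for rev DEN-CA against DEN-CA, and Slc8a3 to -0.061 for CA at 3m, where the median of all genes moved to -0.73. Among other settings, rev CA against rev controls gave 0 at an offset of 6 and 2 at 99. Quantile normalization gave 2 for 18m minus 5j, 9 and 7 for the changes with rev and 2 for TU in the CA arm. Without the filter, 18m minus 5j, rev CA against rev controls and TU in the CA arm each gave 0. The suffix as a covariate gave 28 for DEN-CA at 9m and 22 for age. Fits of only the groups compared, which have fewer samples, gave 14 for CA at 3m, 8 at 18m, 3 for age, and 0 each for DEN at -8, 18m minus 5j, rev CA against rev controls, the change with rev at 18m and TU in the CA arm. Array weights gave 32 for CA at 18m, 30 and 26 for DEN-CA at 9m and 12m, 3 for DEN at -8, 0 for rev CA against rev controls, 50 each for rev CA against CA and rev DEN-CA against DEN-CA, 16 for the change with rev at 12m, 52 for CA labelled 18 and 51 for TU in the CA arm. A 2-fold limit left 4, 7, 6, 4, 5 and 5 for CA by time and 2 on average, 1, 4, 3, 2 and 3 for DEN-CA and 1 on average, 0 for DEN at -8, 0 and 6 for rev CA, 4 for rev DEN-CA against DEN-CA, 3 for the change with rev at 18m, 6 for CA labelled 18, 2 for age, and 0 and 14 for TU in the CA and DEN-CA arms. Within arrays with the suffix, CA gave 8, 1, 4 and 1 from 5j to 9m, DEN-CA 5 at 5j, 10 at 3m and 1 at 9m, and Slc8a3 -0.091 for CA at 3m. Within those without it, CA gave 4 at 5j, DEN-CA 12, 2, 2 and 4 from 5j to 9m, and age 5; lone arrays were assumed to vary like the other groups. Beyond what fewer samples or genes explain by construction, the cause was not tested.

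For the pairing of TU with untagged sections, no replicate block gave 14 in the CA arm and a random block 21, against 7, while the DEN-CA arm gave 52 and 55, against 64. Without rats of rev groups or labelled 18, and with a variance trend on the mean difference, the CA arm gave 0. Leaving out 1 rat at a time gave 15 to 27 for CA at 5j (15 without control 4007), 21 to 32 at 1m (21 without 4126), 13 to 21 at 12m (13 without 4137), 11 to 17 for DEN-CA at 9m (11 without 4115), 0 to 1 for DEN at -8 (0 without 4004) and 0 to 2 for 18m minus 5j. It gave 0 to 7 for rev CA against rev controls (7 without 4044), 15 to 25 against CA (15 without 4151, 16 without 4148), 0 to 8 and 3 to 7 for the changes with rev (0 without 4043, 8 without 4044, 7 without 4111), 6 to 15 for age (6 without 4040 or 4008) and 0 to 48 for TU in the CA arm (48 without 4137, 0 without any other). Dim members such as Slc12a3 and Slc19a1 lay near or under the offset, which limits their changes.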
